A study of Homo sapiens with 12 samples.

Results

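LUZP4, MAGEA3, MAGEA6, MAGEA12, TEX15 and ASZ1 are 6 human genes whose normal expression lies mainly in germ cells, and they were followed across the 12 libraries of a study in HCT116, an epithelial line established from a human colorectal carcinoma. They were taken by name, chosen by their high read levels in the CR3 libraries of these same data. Symbols were matched to Ensembl identifiers, and all 6 were found among the 63677 identifiers measured. Every library came from polyA RNA of HCT116 clones treated with doxycycline, a drug that switches on inducible constructs (1 ug/ul as the labels write it, for 48 of a time unit that is not given). The groups differ in their construct. mCherry, a red fluorescent protein, is the control. CR3 is a peptide described by the submitters as perturbing condensates, which are membraneless assemblies of protein and RNA. Scramble and reverse are further constructs known here only by those names. Each group has 3 libraries, numbered 1 to 3, and no library came from cells without the drug. How many clones stand behind a group, and whether its libraries are separate cultures, is not given in the sources used here. P-values therefore measure only the spread between these libraries.

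Genes of this kind are called cancer-testis genes when tumors also express them. In most somatic cells their promoters are silent, many of them under DNA methylation and histone H3 lysine 9 methylation, and some under the repressor complex PRC1.6, which is known for keeping meiotic and germline genes off. MAGEA3, MAGEA6 and MAGEA12 are neighbouring copies on the X chromosome that encode near-identical adaptors of E3 ubiquitin ligases. LUZP4 encodes an mRNA export adaptor, TEX15 a protein needed for meiotic recombination and transposon silencing in male germ cells, and ASZ1 a mitochondrion-associated protein of the piRNA pathway, in which small RNAs silence transposons in the germline.

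The stretches before the transcription starts are shown because the copies can be told apart there or not, and because the number of CpG sites, the targets of DNA methylation, differs between the genes. A RefSeq window of 300 bases on GRCh38.p14, from 250 bases before to 50 after the start, was found for 5 of the 6 genes. From each, the longest run of bases before the start that lies in no annotated exon is printed 5′ to 3′ on the gene's strand, with CpG sites in capitals. The LUZP4 stretch is chrX:115289465-115289714 (plus strand), that of MAGEA3 is chrX:152698544-152698751 (plus), that of MAGEA12 is chrX:152733507-152733667 (plus) and that of ASZ1 is chr7:117427524-117427743 (minus).
LUZP4: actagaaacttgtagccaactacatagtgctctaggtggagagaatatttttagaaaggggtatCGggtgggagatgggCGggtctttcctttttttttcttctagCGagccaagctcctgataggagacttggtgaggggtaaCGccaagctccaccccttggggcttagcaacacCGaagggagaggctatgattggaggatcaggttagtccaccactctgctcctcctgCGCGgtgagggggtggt
MAGEA3: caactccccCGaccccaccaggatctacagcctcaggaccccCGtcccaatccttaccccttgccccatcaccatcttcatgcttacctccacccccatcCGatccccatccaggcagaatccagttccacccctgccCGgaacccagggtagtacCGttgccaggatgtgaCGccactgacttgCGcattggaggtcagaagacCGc
MAGEA12: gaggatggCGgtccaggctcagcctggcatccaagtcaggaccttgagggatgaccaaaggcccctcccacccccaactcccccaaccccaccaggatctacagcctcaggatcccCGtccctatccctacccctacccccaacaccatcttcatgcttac
ASZ1: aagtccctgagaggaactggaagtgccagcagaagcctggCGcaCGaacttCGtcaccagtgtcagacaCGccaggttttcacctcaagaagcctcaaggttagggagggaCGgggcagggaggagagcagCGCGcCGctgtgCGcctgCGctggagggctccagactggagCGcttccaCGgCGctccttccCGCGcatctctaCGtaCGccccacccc
The whole 300-base windows of MAGEA3 and MAGEA6 were 100% identical, although the genes lie on opposite strands, and each held 19 CpG sites. The MAGEA12 window matched that of MAGEA3 at 203 of 227 aligned positions (89.4%) and held 9 CpG sites. LUZP4 held 11 and ASZ1 29, against a median of 14 over 27303 RefSeq windows of the same length. ASZ1, alone among the 5, held the letters GCGGGAA of the E2F6-type motif (both strands searched), which is known from promoters repressed by PRC1.6 and occurs in 6.56% of all windows. Its single match lies in the stretch printed above, on the other strand. None of the 5 windows held the E-box CACGTG, which occurs in 7.44% of all windows. These matches describe letters only.

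The coding sequences of the 3 MAGEA genes show how far their reads can be told apart. A stretch of 60 coding bases (coding positions 573 to 632) is printed for each because no other stretch of that length holds more differences between MAGEA3 and MAGEA6, with capitals at positions where the 3 genes are not all the same. It lies at chrX:152701405-152701464 (plus strand) in MAGEA3, chrX:152767019-152767078 (minus) in MAGEA6 and chrX:152736734-152736793 (plus) in MAGEA12, in GENCODE 29.
MAGEA3: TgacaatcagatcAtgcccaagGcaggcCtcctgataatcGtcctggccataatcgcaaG
MAGEA6: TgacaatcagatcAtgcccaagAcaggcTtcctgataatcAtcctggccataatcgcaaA
MAGEA12: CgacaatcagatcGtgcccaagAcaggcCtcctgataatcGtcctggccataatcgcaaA
Over all 945 coding bases MAGEA3 and MAGEA6 differ at 18 positions (98.1% identical), and MAGEA3 and MAGEA12 at 74 (92.2%). Of all windows of 50 bases along the MAGEA3 transcript, 56.5% also occur in a MAGEA6 transcript and 2.99% in a MAGEA12 transcript. How the authors' counting treated reads that fit several copies is not given in the sources used here. The split between MAGEA3 and MAGEA6 is therefore uncertain.

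Below, a normalized read level is a gene's read count in a library over that library's deposited size factor, and errors are SD over 3 libraries. Libraries held 17418038 to 23548264 reads assigned to genes. The CR3 group differed widely from the others: of 15182 genes tested with limma, 28.9% were called at an adjusted p under 0.05 against mCherry (14.1% higher and 14.8% lower), 38.3% against scramble (19.2% and 19.1%) and 34.2% against reverse (17.1% and 17.1%). A gene is called higher or lower in CR3 below only if it passed in all 3 of these comparisons, which held for 11% of the genes tested in the higher direction and for 11.4% in the lower. The direction depends on the scale: with library totals in place of the deposited size factors the median of all genes moved from 0.01 to 0.10 on the log2 scale against scramble, and the share of higher genes among those called from 50.2% to 71.2% (from 48.9% to 73.8% against mCherry and from 50.03% to 72.4% against reverse). All comparisons with CR3 share the CR3 libraries.

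In the CR3 libraries 5 of the 6 genes stood above every other library, and these 5 were absent or nearly absent elsewhere. MAGEA3 did not stand above the others and was abundant in all 12 libraries, so its expression was not particular to CR3 cells. The genes were selected on their levels in CR3 against the other groups, so these values are a description and carry no test. All 5 of the high genes reached the minimum of 10 reads in 3 libraries only through the CR3 libraries. Among all genes tested, 13.9% had CR3 libraries above the other 9, and 13.6% had them below.

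**Figure D1:**
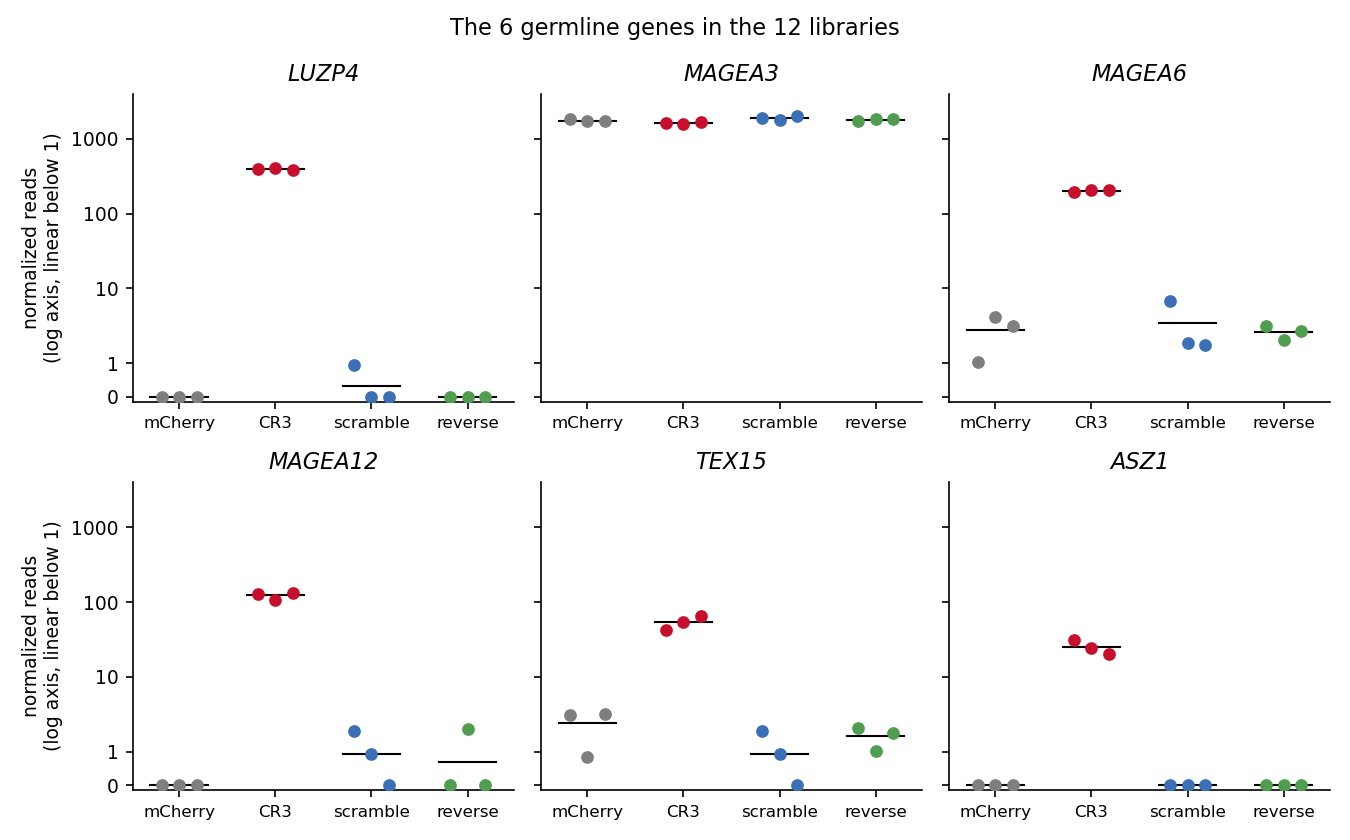
Normalized reads (vertical axis, logarithmic above 1 and linear below) of each gene in the 4 groups (horizontal axis). Points are single libraries and lines are group means. In 5 panels the CR3 points lie alone above the others, and in the MAGEA3 panel all 12 points lie between 1579 and 1978.

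LUZP4 (ENSG00000102021, chromosome X, 115289727 to 115307556, plus strand, protein-coding), the export adaptor, had 425, 463 and 354 reads in the CR3 libraries. It had 1 read in scramble library 1 and none in any of the other 8. The CR3 libraries thus held 1242 LUZP4 reads in all and the others 1, and the CR3 level was 393 ± 15.3 normalized reads. With a floor of 3 reads per library, this was at least 133-fold above mCherry and at least 132.7-fold above reverse. Against scramble the ratio was 1282, with an exact 95% counting interval of 229.7 to 50682, which covers counting error only. The CR3 values were close to each other, within 376 to 406.

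MAGEA12 (ENSG00000213401, chromosome X, 152733779 to 152737669, plus strand, protein-coding) had 138, 121 and 124 reads in CR3 and none in mCherry. Scramble libraries held 2, 1 and 0 reads and reverse libraries 0, 2 and 0. No other library came near the lowest CR3 library. Its level in CR3 was 122 ± 14.1 normalized reads, at least 41.4-fold above mCherry, with ratios of 132 (44.8 to 642, 95% counting interval) against scramble and 185 (51.0 to 1536) against reverse.

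MAGEA6 (ENSG00000197172, chromosome X, 152766136 to 152769747, minus strand, protein-coding) had 210, 233 and 192 reads in CR3. It had 1, 5 and 3 reads in mCherry, 7, 2 and 2 in scramble and 3, 2 and 3 in reverse. The groups did not overlap. The level in CR3 was 201.5 ± 4.65 normalized reads. It was 2.82 ± 1.62 in mCherry, 3.45 ± 2.83 in scramble and 2.62 ± 0.54 in reverse, which gives ratios of 71.5, 58.5 and 76.8. Its value in CR3 library 1 rests on the restored decimal mark. The deposited digits allow 21 reads there as well, and with powers of 10 chosen without the group labels that lower value is taken. No other value of the 6 genes changed under that choice.

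MAGEA3 (ENSG00000221867, chromosome X, 152698752 to 152702347, plus strand, protein-coding), the copy whose protein has been a target of cancer vaccines, was expressed in every library. It had 1723, 2053 and 1593 reads in mCherry, 1728, 1800 and 1577 in CR3, 1951, 1882 and 2256 in scramble and 1671, 1769 and 2015 in reverse. The CR3 libraries were the lowest on the normalized scale, with 1614, 1579 and 1676, against 1699.5 in the lowest of the other 9. The level was 1623 ± 49.2 in CR3, 1742 ± 51.8 in mCherry, 1869 ± 109 in scramble and 1787 ± 40.6 in reverse. The log2 differences of CR3 were small, -0.10, -0.20 and -0.14 against mCherry, scramble and reverse. Scaled by library totals they shrank to -0.01, -0.11 and -0.05, and the CR3 range of 85.1 to 90.5 CPM (reads scaled to the library total) then overlapped the range of 85.9 to 99.1 in the other libraries.

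Because MAGEA3 and MAGEA6 share most of their sequence, their sum was also taken. It was 1825 ± 49.99 normalized reads in CR3, 1745 ± 50.5 in mCherry, 1873 ± 109 in scramble and 1790 ± 40.1 in reverse, so the CR3 libraries lay among the others. The share of MAGEA6 in the sum was 10.8% to 11.5% in CR3 and 0.058% to 0.358% in the other 9 libraries. MAGEA3 was no lower in those 9 libraries, where its 1593 or more reads went with at most 7 MAGEA6 reads.

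**Figure D2:**
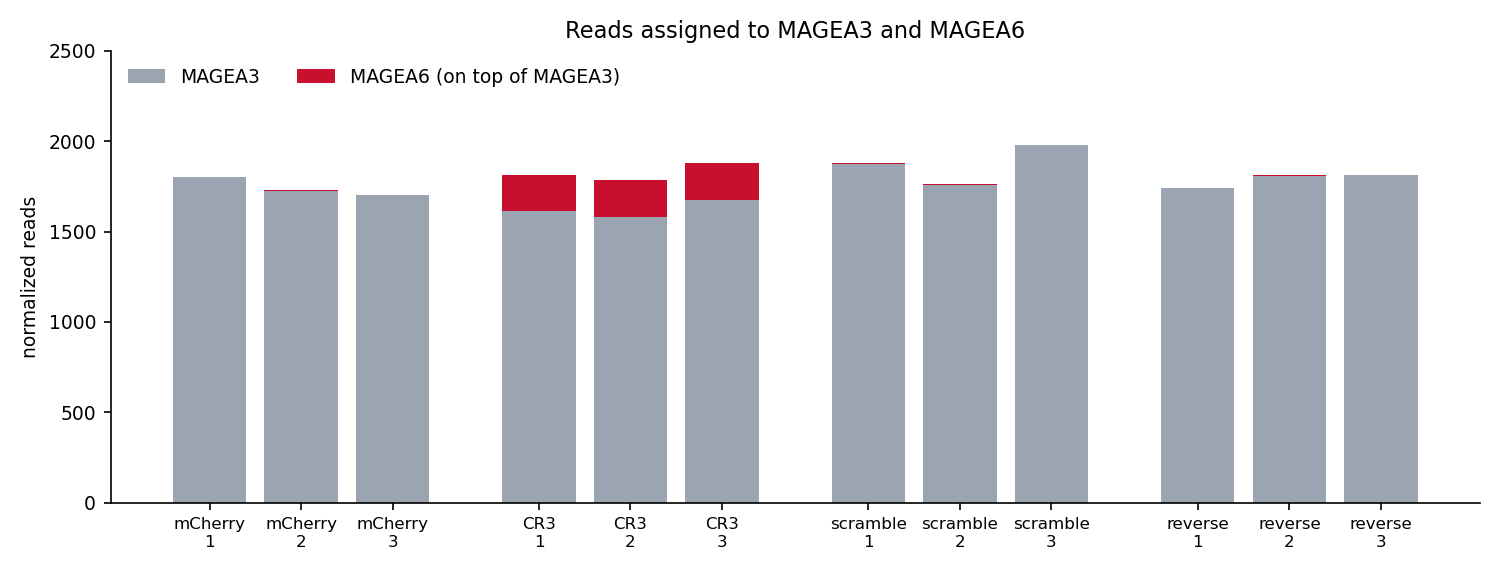
Normalized reads (vertical axis, from 0) of MAGEA3 (grey) with MAGEA6 (red) on top, for each library (horizontal axis, group and replicate number). The red part stands for 196 to 204 normalized reads in the 3 CR3 libraries and for at most 6.71 elsewhere, while the summed bars of CR3 lie within the range of the others.

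TEX15 (ENSG00000133863, chromosome 8, 30831544 to 30913003, minus strand, protein-coding), the meiotic recombination and silencing factor, had 45, 62 and 62 reads in CR3. It had 3, 1 and 3 reads in mCherry, 2, 1 and 0 in scramble and 2, 1 and 2 in reverse. All CR3 libraries lay above all others, at 54.1 ± 11.9 normalized reads. The ratios were 22.6 to mCherry, 58.2 (19.6 to 285, 95% counting interval) to scramble and 33.1 to reverse. ASZ1 (ENSG00000154438, chromosome 7, 117363222 to 117428123, minus strand, protein-coding), the piRNA pathway gene, had 33, 28 and 19 reads in CR3 and none in any of the other 9 libraries. At 25.2 ± 5.35 normalized reads it was at least 8.53-fold above mCherry, at least 9.09-fold above scramble and at least 8.50-fold above reverse.

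Levels of different genes were compared per kilobase of annotated exon. On that scale the order in CR3 was MAGEA3 (908 ± 27.5 normalized reads per kb), LUZP4 (228 ± 8.87), MAGEA6 (108 ± 2.49), MAGEA12 (62.9 ± 7.23), ASZ1 (8.22 ± 1.74) and TEX15 (4.56 ± 1.01). Neighbours in this order did not overlap between libraries. The closest pair was ASZ1 and TEX15, with 6.59 in the lowest ASZ1 library and 5.55 in the highest TEX15 library. In the other groups the highest mean outside MAGEA3 was 1.85 per kb, for MAGEA6 in scramble. Together the 5 genes without MAGEA3 took 42.5 to 43.1 CPM in the CR3 libraries and 0.0879 to 0.580 elsewhere. In such bulk samples a high level in few cells and a low level in all cells cannot be told apart, nor can fewer expressing cells and less RNA per cell.

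Among mCherry, scramble and reverse a test can be read for MAGEA3 alone. The other 5 genes were chosen as low in these 9 libraries and had too few reads there, so no test of them is given. MAGEA3 was called in none of the 3 comparisons (limma adjusted p 0.372, 0.853 and 0.809 for scramble against mCherry, reverse against mCherry and reverse against scramble). Over all genes 1.55% were called between scramble and mCherry (0.784% higher in scramble and 0.771% lower), 0.639% between reverse and mCherry (0.25% and 0.389%) and 0.448% between reverse and scramble (0.27% and 0.178%). The largest value for MAGEA3 was a log2 difference of 0.10 (SE 0.05) between scramble and mCherry. The other 5 genes had from 0 reads (ASZ1) to 28 (MAGEA6) over the 9 libraries.

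By the root mean square difference of log2(normalized reads + 1) over the 12 libraries, the genes most like each of the 6 were sought among 13875 tested genes with a symbol. For LUZP4 they were PNMA8A (0.51), TLE4 (0.73) and EMILIN3 (0.76), and for MAGEA12 they were TP73-AS1 (0.39) and BEND4 (0.48). COL4A1 (0.64), COL2A1 (0.65) and ROBO1 (0.75) were nearest to MAGEA6. HOXD11 (0.55), ZNF853 (0.60) and ZDHHC22 (0.63) were nearest to TEX15. PDZRN3 (0.07), RAB39B (0.13) and SLC7A3 (0.15) were nearest to ASZ1, had no reads outside CR3 either and had 86, 92 and 92 reads in it. MAGEA3 was nearest to POFUT1 (0.04), VPS4A (0.05) and PELP1 (0.06), all with group means between 1658 and 1888 normalized reads. The libraries of a group are not independent of each other in this measure, so it is a description.

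Along the X chromosome 14 genes of the MAGEA and CSAG families had at least 1 read. MAGEA11, at one end of the series, had no read outside CR3 and 54.3 ± 5.68 normalized reads in it, at least 18.4-fold above mCherry. CSAG1, whose start lies 36 bases from that of MAGEA12 on the opposite strand, was at 47.8 ± 1.84 in CR3, 4.41 ± 2.0 in mCherry, 3.36 ± 1.32 in scramble and 3.96 ± 2.13 in reverse (log2 differences 3.25, 3.53 and 3.39). Both had enough reads to be tested only through the CR3 libraries, so their calls add nothing to these values. MAGEA2B, the other tested gene that is no member, was not called, at 48.6 ± 11.5 in CR3 and 33.4 to 53.3 on average elsewhere. The rest were not tested. MAGEA10 had 20 reads in CR3 and none in the other 9 libraries. MAGEA4 had about 29 in CR3 and 1 elsewhere, but the power of 10 of at least 1 of its values is not settled. CSAG4 had 24 in CR3 and 7, 6 and 11 in mCherry, scramble and reverse. MAGEA1, MAGEA8 and MAGEA9 had 1 read each in CR3, the antisense gene MAGEA4-AS1 had 4 and MAGEA8-AS1 had 0. CSAG2, CSAG3 and MAGEA2, which lie between the members, had no read in any library. They have near-identical copies too, and whether the counting used the strand, which matters for the antisense genes, is not given.

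**Figure D3:**
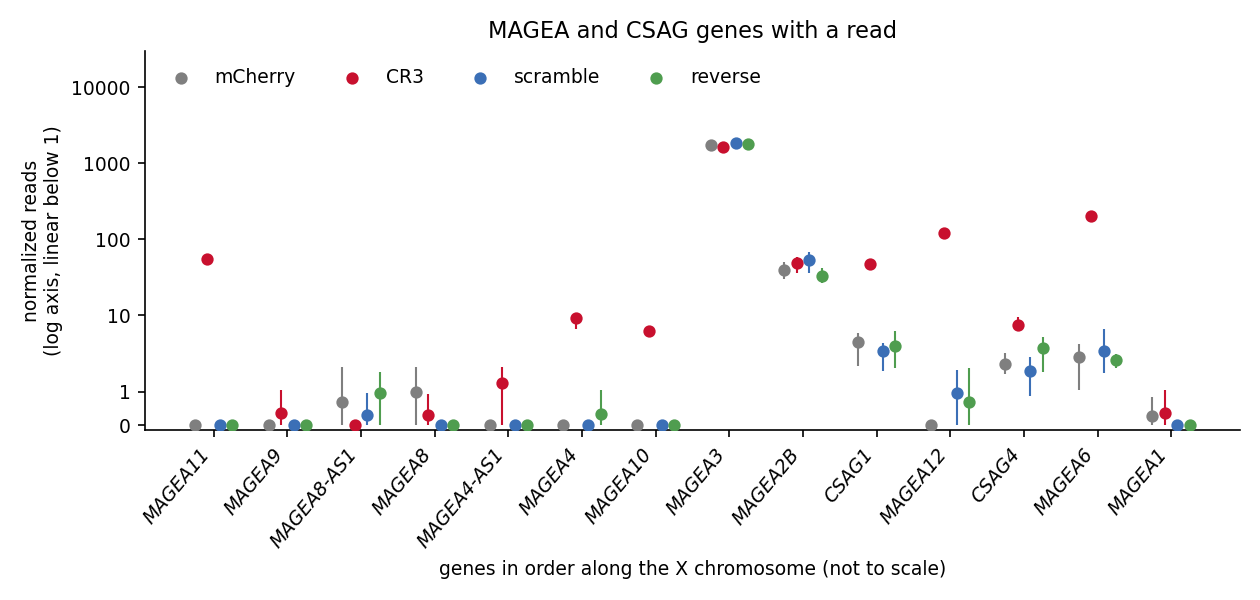
Normalized reads (vertical axis, logarithmic above 1 and linear below) of the 14 MAGEA and CSAG genes with a read, in their order on the X chromosome. Points are group means and bars reach from the lowest to the highest of 3 libraries. MAGEA11, CSAG1, MAGEA12 and MAGEA6 have CR3 means of 47.8 or more with low values elsewhere, whereas MAGEA3 and MAGEA2B have group means of 1623 to 1869 and 33.4 to 53.3.

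The protein-coding genes on either side were examined, 3 each. On one side of LUZP4, LRCH2, whose start lies 179111 bases away, rose in CR3 from 0.35 ± 0.60 in mCherry to 115 ± 19.9. On the other side PLS3, an actin-bundling protein whose start lies 271447 bases away, rose from 3260 ± 92.6 to 4795 ± 182 (log2 differences 0.56, 0.62 and 0.60). RBMXL3, which lies between LRCH2 and LUZP4, and SLC6A14 had no read, and IL13RA2 and AGTR2 at most 2 in a group. On one side of MAGEA3, GABRA3, a GABA receptor subunit whose start lies 532518 bases away, rose to 41.7 ± 8.20 from no read in mCherry. GABRQ, which lies between them, had no read in any library. On the far side of MAGEA6, CETN2, NSDHL and ZNF185 were not called. PURG, which lies beside TEX15, rose from 1.48 ± 1.72 in mCherry to 18.8 ± 6.07, while UBXN8 and WRN were not called, and GSR, glutathione reductase, fell (log2 differences -0.40, -0.44 and -0.41). PPP2CB, on the same side, was also called lower (-0.16, -0.19 and -0.21), but its call against mCherry was lost without mCherry library 1, 2 or 3, CR3 library 1 or 3, scramble library 1 or reverse library 2 (adjusted p 0.054 to 0.18 by limma), that against scramble without CR3 library 1 (0.066) or scramble library 3 (0.064), and that against reverse without CR3 library 1 (0.0504). NRG1 was under the read minimum. LRCH2, GABRA3 and PURG were tested only through the CR3 libraries. Around ASZ1, CAPZA2, ST7 and CTTNBP2 were not called, WNT2 and CFTR were under the read minimum and LSM8 fell (-0.31, -0.40 and -0.30).

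**Figure D4:**
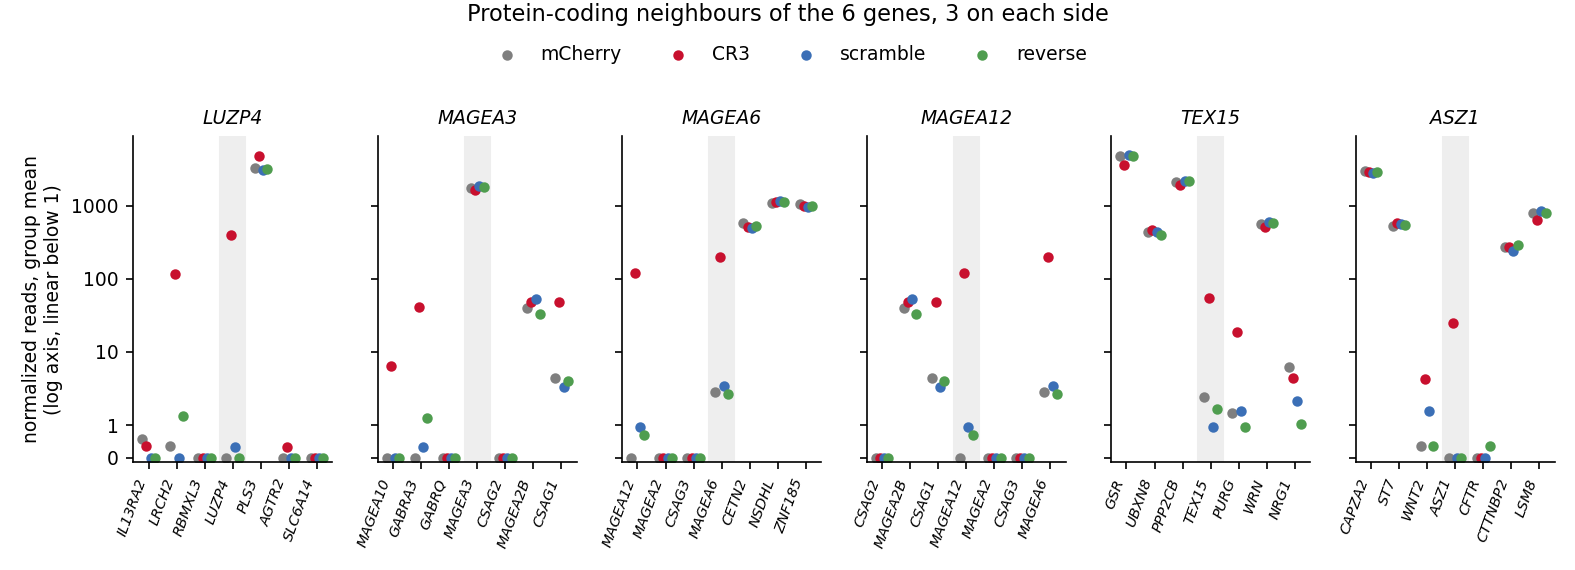
Group means in normalized reads (vertical axis, logarithmic above 1 and linear below) of each member (shaded) and its 3 protein-coding neighbours on each side, in chromosome order. Genes with CR3 means far above the other groups stand next to genes that were not called, as with PURG (18.8 in CR3) and WRN beside TEX15.

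On the X chromosome a larger share of genes was called higher in CR3 than over all genes. Of 503 X-linked genes tested, 127 (25.2%) were called higher, against 1654 of 14852 (11.1%) among all tested genes with an annotated chromosome, and 4 of the 6 members are X-linked. The tested X-linked genes include LUZP4, MAGEA6 and MAGEA12, which were chosen as high in CR3. They also include genes tested only through the CR3 libraries, such as MAGEA11, SAGE1, CSAG1 and CT55. No share without such genes was computed, so the difference is a description and was not tested.

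Most other germline genes had no read, too few reads to test or no call. Of 105 X-linked cancer-testis genes other than the members that were found in the table, 62 had no read in any library and 7 were tested. The 62 include genes with near-identical copies, such as GAGE12B, GAGE12C, CTAG1A and CTAG1B. How reads that fit several copies were counted is not given, so no read does not show that such a gene was silent. MAGEA11, SAGE1 (41.3 ± 8.23 in CR3), CSAG1, CT55 (17.7 ± 6.78) and PLAC1 (48.1 ± 5.62, from 16.2 ± 4.22 in mCherry) rose, and MAGEB2, which was abundant everywhere, fell from 5367 ± 144 in mCherry to 4824 ± 42.3 (log2 differences -0.15, -0.15 and -0.16). Scaled by library totals MAGEB2 was not called (adjusted p 0.19 to 0.22 by limma). The median log2 difference of the 7 was 3.0, 3.33 and 3.39, beside 0.00, 0.01 and 0.01 over all genes, but 4 of them (MAGEA11, SAGE1, CSAG1 and CT55), like the members other than MAGEA3, were tested only through the CR3 libraries and so had to differ. Among the 3 that had enough reads without CR3, 1 rose and 1 fell. The 11% and 11.4% over all genes include the 648 genes tested only through CR3. No share over all genes without these was computed, here or for the like counts of other lists below.

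Of 24 autosomal cancer-testis genes tested, 4 rose (16.7%) and 2 fell (8.33%), beside 11% and 11.4% over all genes. The medians of this list were 0.02, 0.09 and 0.05. CABYR, LDHC and TULP2 were tested only through the CR3 libraries, and of the other 21 genes 1 rose and 2 fell. CABYR, a calcium-binding protein of the sperm tail, rose from 2.47 ± 2.21 in mCherry to 46.9 ± 6.03, LDHC, the testis lactate dehydrogenase, from 1.27 ± 1.12 to 19.4 ± 3.85, and TULP2 from 1.97 ± 0.25 to 14.4 ± 3.32. KDM5B, a histone demethylase, rose by 0.19, 0.40 and 0.28 on the log2 scale. ODF2 and GPAT2 fell (-0.34 and -0.36 against mCherry). The GPAT2 call was lost without mCherry library 2, CR3 library 2 or 3 or scramble library 2 or 3 (limma adjusted p just over 0.05 in the first case and up to 0.102 in the others) and, against scramble, under scaling by library totals (0.13). With powers of 10 chosen without the group labels LDHC and TULP2 dropped below the read minimum, which left 2 genes higher of 22. Meiosis genes gave 3 higher and 2 lower of 19 tested (medians 0.05, 0.04 and 0.04). DMC1 and SYCP2 were tested only through the CR3 libraries, and of the other 17 genes 1 rose and 2 fell. DMC1, the meiotic recombinase, was at 51.8 ± 9.01 in CR3 and 8.23 ± 1.44 in mCherry, SYCP2, of the synaptonemal complex, at 19.7 ± 4.92 and 4.43 ± 2.42, and BRME1 at 86.0 ± 15.9 and 40.1 ± 7.05. MND1 (-0.61, -0.76 and -0.64) and CCNB1IP1 (-0.23, -0.25 and -0.27) fell, the latter not against mCherry without mCherry library 2 (adjusted p 0.053 by limma) and, scaled by library totals, neither against mCherry (0.10) nor against scramble (0.052). The BRME1 rise rests on the restored decimal marks, since without the labels its log2 differences were -1.03, -0.89 and -0.65, and DMC1 was then called only against scramble.

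In the piRNA pathway, to which ASZ1 belongs, 15 other genes were tested. Of these 1 rose (6.67%) and 4 fell (26.7%), beside 11% and 11.4% over all genes. The medians were -0.08, -0.03 and -0.09, or 0.01, 0.06 and -0.01 scaled by library totals. TDRD7 rose by 0.18, 0.29 and 0.26, and its call against mCherry was lost without any 1 of CR3 libraries 1, 2 and 3 or mCherry libraries 1 and 3 (adjusted p 0.057 to 0.086 by limma). GTSF1, a piRNA factor that HCT116 cells expressed abundantly, fell from 3435 ± 141 in mCherry to 2685 ± 150, MYBL1, a transcription factor of piRNA loci in testis, fell by 0.39, 0.57 and 0.67 on the log2 scale, and HSP90AA1, a chaperone, by 0.38, 0.42 and 0.42. GPAT2, on this list too, is the fourth.

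Genes of the machinery that is known to keep such genes silent were counted as well. Among 34 DNA methylation and H3K9 methylation genes tested, 4 rose (11.8%) and 5 fell (14.7%), beside 11% and 11.4% over all genes. The medians were -0.01, -0.06 and -0.03, or 0.08, 0.04 and 0.06 scaled by library totals. DNMT1, the maintenance methyltransferase, fell from 6279 ± 213 in mCherry to 5299 ± 281, and was at 7013 ± 115 in scramble and 6822 ± 361 in reverse. CDCA7L (-0.57, -0.56 and -0.56), CBX1 (-0.35, -0.41 and -0.37), and TRIM28, the KRAB corepressor (-0.30, -0.35 and -0.30), fell as well. DNMT3A, a de novo methyltransferase, rose from 441 ± 38.6 to 550 ± 26.7, TET1, which oxidizes methylcytosine, from 139 ± 4.86 to 224.5 ± 42.8, and ZBTB33 from 1105 ± 94.0 to 1414 ± 77.3. Of 14 PRC1.6 genes none rose (2 did when scaled by library totals), and TFDP1 (-0.31, -0.37 and -0.35) and CBX3 (-0.39, -0.43 and -0.41) fell.

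Genes tied to the function of LUZP4 and of the MAGE proteins were also counted. Of 28 mRNA export genes tested, 1 rose (3.57%) and 8 fell (28.6%), beside 11% and 11.4% over all genes. LENG8 rose (0.28, 0.37 and 0.33). Among the 8 that fell were DDX39A (-0.41, -0.62 and -0.48), ALYREF (-0.34, -0.56 and -0.43), ENY2 (-0.30, -0.41 and -0.36) and SRSF3 (-0.24, -0.35 and -0.25). Scaled by library totals, where 17.98% of all genes were higher and 6.13% lower, the list had 2 higher and 4 lower, and its median turned from -0.06 to 0.03 against mCherry. The LENG8 call against mCherry was lost without CR3 library 3 (adjusted p 0.060 by limma). Of 6 type II MAGE genes, the broadly expressed relatives, MAGED1 (0.23, 0.23 and 0.25), MAGED2 (0.53, 0.64 and 0.63) and MAGEH1 (25.2 ± 3.61 normalized reads in CR3, group means of 0.36 to 0.64 elsewhere) rose and none fell. MAGEH1 was tested only through the CR3 libraries, and of the other 5 genes 2 rose. Of 9 partner ligases and substrates of MAGE proteins none rose and only TRIM28 fell.

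**Figure D5:**
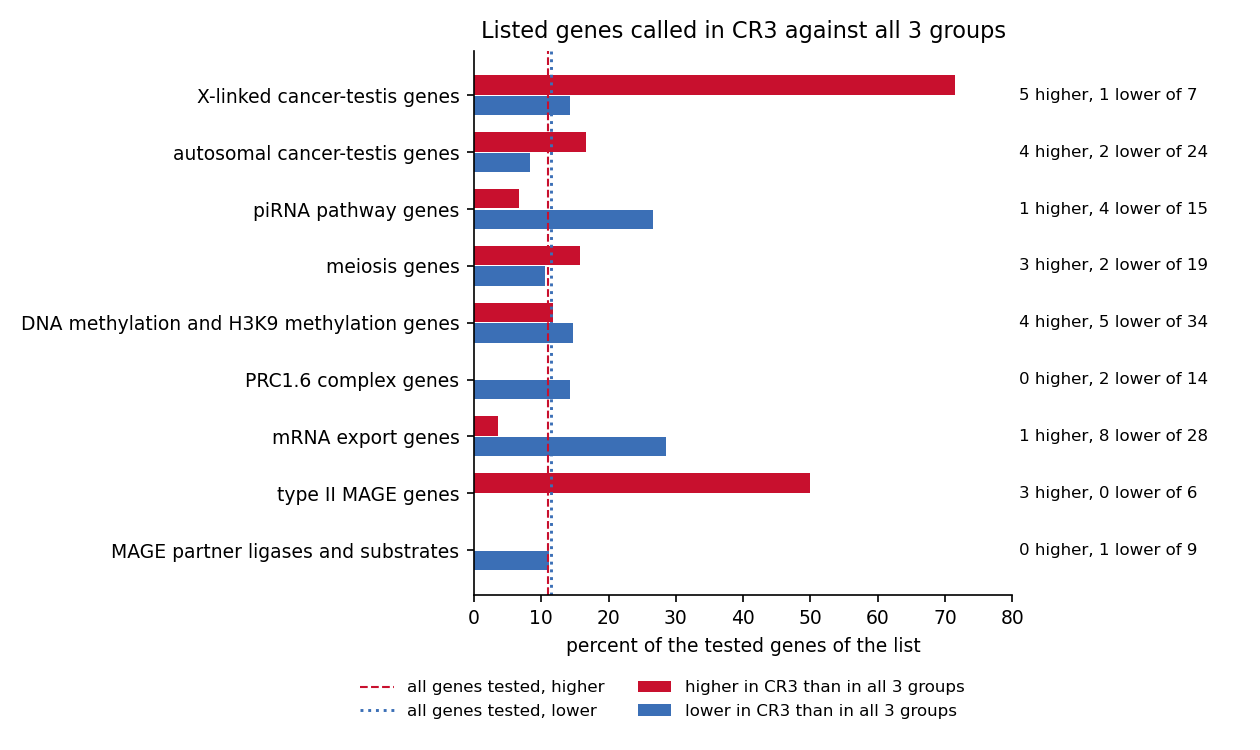
Percent of the tested genes (horizontal axis) of each list (vertical axis) that were called higher (red) or lower (blue) in CR3 than in all 3 other groups, with the counts at the right. The dashed and dotted lines mark 11% higher and 11.4% lower over all genes tested. The X-linked cancer-testis list, with 5 of 7 higher, reaches farthest to the right, but 4 of the 7 were tested only through the CR3 libraries. Of its other 3 genes, 1 rose and 1 fell.

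Markers of germ cells and of other cell types were read in the same libraries. Of 21 germ cell markers, 8 had no read in CR3 (DAZL, DPPA3, NANOG, SOX17, PRM1, PRM2, TNP1 and TNP2), and DDX4 and POU5F1 had 1 read each there. Of the 8, SOX17, PRM2, TNP1 and TNP2 had no read in any of the 12 libraries. Of the 4 tested, only KIT rose (tested only through the CR3 libraries), to 43.2 ± 12.1 from 0.36 ± 0.62 in mCherry, and the highest in CR3 was TFAP2C, at 474 normalized reads, which was not called. The summed level of the list was 590 to 672 in CR3 and 443 to 579 elsewhere. Of 14 tested genes that mark embryonic kidney lines and neuron-like cells, 10 rose and 1 fell, beside 11% and 11.4% over all genes. But 8 of the 14 were tested only through CR3, and of the other 6 genes 2 rose and 1 fell. The summed level of all 20 markers was 3939 to 4250 in CR3 and 1295 to 1494 in the other libraries. The highest were VIM (764 ± 31.1), L1CAM (663 ± 44.0, not called), IRS4 (550 ± 54.2, against 4.70 ± 1.82 in mCherry) and UCHL1 (494 ± 51.4, against 2.54 ± 2.25), while STMN4 had no read in CR3. Their part in the levels of LUZP4, MAGEA6, MAGEA12, TEX15 and ASZ1 was not tested. Colorectal epithelial markers were present in all groups. Of 13 tested, 7 fell (53.8%) and none rose, beside 11.4% lower and 11% higher over all genes. The sum of this list was 54218 to 62729 in CR3 and 66000 to 74742 elsewhere. EPCAM fell from 5081 ± 319 in mCherry to 4311 ± 92.4. CDX1 had no read in CR3, but its level in the other groups is not reported here, so no fall is read from it. Fibroblast, blood cell and trophoblast lists had 1, 0 and 1 gene tested, of which PLAC1, on the trophoblast list too, rose. Their sums were 902 to 1108, 25.2 to 30.8 and 57.9 to 72.9 in CR3 and 684 to 926, 5.33 to 15.7 and 16.2 to 44.6 elsewhere. The part of these lists in the levels of the 5 genes was not tested either.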

How the data were processed

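PolyA RNA was sequenced from 12 HCT116 libraries with a stranded TruSeq kit, per the labels' protocols. The submitters' processing notes name FastQC, Trim Galore, STAR, featureCounts, Salmon, GATK, MultiQC, edgeR, DESeq2 and GRCh38, without saying how each was used. The deposited table holds read counts divided by a size factor for 63677 identifiers, and the decimal mark is missing from nearly all values of 1 or more. These values were rebuilt: in each library they are whole multiples of what 1 read is worth (100% of 265152 nonzero values, within 1e-07), and the power of 10 was chosen per value by its probability given the gene's other values and the group labels. Values that kept their mark lie under 1, so each stands for 1 read. Of these, 98.4% were read correctly with the mark hidden, which does not check values of more reads. A further 2196 values (0.828%) with a probability under 0.95 stayed ambiguous, and 963 (0.363%) would change without the labels. Genes with an ambiguous value (973) were left out.

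Genes with at least 10 reads in at least 3 libraries were tested (15182, of which 648 only through CR3) with limma 3.58.1 in R 4.3.3, with a trend, on log2(normalized reads + 1), all 4 groups in 1 fit, two-sided, Benjamini-Hochberg adjusted p under 0.05. On simulated data of CR3 against mCherry, 36 of 44 genes changed 2-fold up and 46 of 46 changed 50-fold up were called. So were 33 of 38 genes changed to 0.5-fold, 9 of 11 changed to 0.1-fold and 8 of 14799 unchanged genes. The simulation changed far fewer genes than were called here, with a fixed spread and the true size factors. It therefore does not give the rate of false calls in the real data. Fold changes on this scale understate changes of low genes. Intervals and floors cover counting error only. Symbols, exon lengths and positions came from GENCODE 29, which holds 52526 of the identifiers. No replicate pair was as close as counting error alone allows (chi-square per degree of freedom 2.73 to 9.75).

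Members and gene lists were chosen with earlier results of these data known. Named are the members, up to 4 genes per list and direction that were called in all 3 CR3 comparisons, ranked by their smallest log2 difference, 3 protein-coding neighbours on each side, MAGEA and CSAG genes with a read, the 3 genes most like each member, and up to 4 highest markers per list. A few genes that these rules name are not reported here. Alternatives were other pseudocounts, scaling, filters, limma voom, pairwise fits, a replicate block and leaving out each library. Python 3.11.15, pandas 2.3.3, scipy 1.17.1 and Biopython 1.88 were used.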

Additional observations from a re-analysis of the deposited data

How the results depend on the processing

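Counts of listed genes higher in CR3 than in all 3 groups moved in these cases. Scaled by library totals, where 17.98% of all genes were higher and 6.13% lower (11% and 11.4% with size factors), 3 piRNA genes were higher (1 with size factors), 2 PRC1.6 genes (0), 2 mRNA export genes (1) and 1 MAGE partner (0), while 4 mRNA export genes were lower (8). For the piRNA genes, a pseudocount of 5 gave 2, limma voom 3 and fits of only the 2 groups compared 0. Without a filter on reads, 11 X-linked cancer-testis genes of 42 were higher, and with ambiguous genes kept, 5 meiosis genes of 23. For settings other than library totals, no matching share over all genes is given for listed genes, here or below. Those counts are a description only. The cause of these moves was not tested.

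For the other comparisons, reverse against mCherry had 97 calls, and about 1.5e+02 (52 higher and 94 lower) without the filter, 165 with ambiguous genes kept and 59 in a fit of those groups alone. Reverse against scramble had 68, and 104 and 129 without the filter and with ambiguous genes. Scramble against mCherry had 236, and 76 in a fit of those groups alone. With the replicate number as a block it had 151, and PPP2CB lost its call against mCherry. The block changed no other call among the genes recomputed under it and moved no other count past 1.5 times. Libraries of the same number did not deviate together (correlations of -0.13 to 0.07 over 18 pairs), and 3 of 12 were closest to their own number.

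Leaving out 1 library gave 99 to 605 calls for scramble against mCherry, with 605 without mCherry library 3, 134 and 109 without mCherry libraries 1 and 2, and 115, 125 and 99 without scramble libraries 1, 2 and 3. Reverse against mCherry had 80 to 191 (191 without mCherry library 3). Higher piRNA genes numbered 0 to 2, higher mRNA export genes 0 to 1 (0 without CR3 library 3) and lower MAGE partners 1 to 2 (2 without mCherry library 3).

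Chosen after seeing the data, powers of 10 set without group labels gave 151 calls for scramble against mCherry and 60 for reverse against mCherry, 2 higher autosomal cancer-testis genes and 1 higher meiosis gene, and turned BRME1 to -1.03, -0.89 and -0.65. Counting only listed genes with enough reads outside CR3, also chosen later, left 1 higher gene each on the X-linked (of 3), autosomal (of 21) and meiosis (of 17) lists. No direction of a member in CR3 turned under any alternative run. Genes at 0 outside CR3 are limited by depth: their folds are lower bounds.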

Other observations

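Among 154 listed genes tested, 3 were called between scramble and mCherry (1.95%) and 1 in each of the other comparisons without CR3 (0.649%). Over all genes the shares were 1.55% for scramble against mCherry, 0.639% for reverse against mCherry and 0.448% for reverse against scramble. The listed genes were thus called about as often as genes in general. Those named here were chosen after their values were seen. PRSS50, a testis protease, was at 18.1 ± 4.05 normalized reads in mCherry, 1.36 ± 1.65 in CR3, 0.29 ± 0.51 in scramble and 0 in reverse. Its highest group mean was thus in the control. The same held for LY6K (13.7 ± 3.32 in mCherry and 6.42 ± 4.38 in CR3), which was not called. It also held for BRDT (4.70 ± 1.82 and 0.65 ± 0.57), which had too few reads to test. TMEM108 was at 36.9 ± 6.25 in CR3 and 20.3 ± 8.58 in scramble, against 0 in mCherry and 0.64 ± 0.56 in reverse, so that it was shared by CR3 and scramble. KDM5B was lower in scramble (2456 ± 53.5) than in mCherry (2846 ± 97.3). PRAME, a cancer-testis gene outside the X chromosome, was at 2533 ± 132 in CR3 and 2498 ± 153 in mCherry and was called in no comparison with CR3.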
